A study of Mus musculus with 18 samples.

Results

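The conjugation enzymes described here are the glutathione transferases (*Gst*), UDP-glucuronosyltransferases (*Ugt*) and sulfotransferases (*Sult*) of mouse liver. They were chosen by symbol, as every *Gsta*, *Gstk*, *Gstm*, *Gsto*, *Gstp*, *Gstt* and *Gstz* gene, every gene of the *Ugt1a*, *Ugt2a*, *Ugt2b* and *Ugt3a* groups, and every *Sult* gene. Of 59 such symbols, 41 had a mean of at least 1 FPKM over the 18 libraries and were compared, among 10835 genes tested. FPKM, fragments counted per kilobase of transcript and per unit of mapped reads, corrects for transcript length, so levels of different genes can be set beside each other. The 41 were 19 of 21 *Gst*, 16 of 20 *Ugt* and 6 of 18 *Sult* symbols.

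The study asked what the loss of *Gpr180*, a gene of a membrane receptor, does to the liver of mice on a high-fat diet (HFD). Livers of 9 wild-type and 9 *Gpr180*KO mice were analysed, all male, 20 weeks old and fed HFD for 12 weeks, with 1 library per mouse. The deletion is whole-body and takes out exon 6, made with Cas9 guides in the flanking introns of C57BL/6J embryos, so every cell type of the liver carries it. Judged by the style of their titles the samples form 2 sets, called series 1 (replicates 1 to 4 of each genotype) and series 2 (replicates 5 to 9), and each genotype is in both. As a check of the labels, *Gpr180* was at 4.46 to 9.24 FPKM in wild-type livers and at 0.876 to 1.99 FPKM in knockout livers, with no overlap (exact permutation test, two-sided, p = 4.11e-05, the lowest p this design can reach). Relative to the deepest library, depth was 60.5 to 100% in wild-type and 44.0 to 93.6% in *Gpr180*KO libraries. *Gpr180*KO replicate 5 stood apart by the highest sum of FPKM over all genes, and it held the highest level of 7 and the lowest level of 8 of the 41 enzymes.

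Conjugation is the second phase of detoxification, in which a polar group is joined to a drug, hormone, bile pigment or reactive lipid so that it can leave the cell in bile or urine. Glutathione transferases add glutathione to electrophiles, UDP-glucuronosyltransferases add glucuronic acid from UDP-glucuronic acid, and sulfotransferases add sulfate from the donor PAPS. The liver is the main site of all 3 reactions, and its hepatocytes hold large amounts of these enzymes. The genes arose by repeated duplication and lie in clusters of close copies. Several of them therefore cannot be told apart by every short read.

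The closest copies are shown first, because the values of *Gsta1* and *Gstp1* rest on them. The stretches are coding bases 436 to 510 of the alpha class genes and coding bases 1 to 75 of the pi class genes, counted from the A of the start codon, read from GENCODE M21 transcripts of GRCm38. Each stretch was chosen as the 75-base window, starting at a codon, with the most differing bases in its set. The rest of the coding sequence is thus no more different per window. Capitals mark the bases that differ between the genes of a set. *Gm3776* is a neighbouring copy of *Gsta1* outside the naming rule.
Gsta1: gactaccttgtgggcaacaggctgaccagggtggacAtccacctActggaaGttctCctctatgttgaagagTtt
Gm3776: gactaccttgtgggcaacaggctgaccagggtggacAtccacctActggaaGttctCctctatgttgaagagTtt
Gsta2: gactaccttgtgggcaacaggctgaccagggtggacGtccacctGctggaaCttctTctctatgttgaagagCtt
Gstp1: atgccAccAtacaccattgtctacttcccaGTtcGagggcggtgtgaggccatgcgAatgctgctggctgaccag
Gstp2: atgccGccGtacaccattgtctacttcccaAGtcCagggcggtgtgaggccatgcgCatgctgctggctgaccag

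*Gsta1* and *Gm3776* are identical over this stretch and differ at 2 of 669 coding bases in all (99.7% identical). *Gsta2* differs from both at 5 of these 75 bases. *Gstp1* and *Gstp2* differ at 6 of the 75 bases shown and at 12 of 630 coding bases (98.1% identical). *Ugt2b5* and *Ugt2b38* differ at 47 of 1590 coding bases, and *Ugt3a1* and *Ugt3a2* at 106 of 1569. To see how far this could reach, every 75-base window of each transcript was looked up in the transcripts of all other genes. For *Gsta1*, 86.3% of the windows were also found in another gene, and for *Gsta2* 46.9%. The share was 57.7% for *Gstp1* and 68.2% for *Gstp2*. The 6 *Ugt1a* genes, which are spliced from different first exons to the same final exons, shared 59.4 to 100% of their windows. Of the other genes the results turn on, *Gstm3* shared 21.6%, *Gstm1* 20.4% and *Gstm5* 11.9%, the last with an antisense transcript. *Gstk1* shared none and *Sult5a1* 0.0804%. In all, 15 of the 41 genes shared no window and 16 shared over 10%. The tables do not say how the authors' tool split reads between copies, so the values of these 16 are uncertain as single-gene values.

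**Figure D1:**
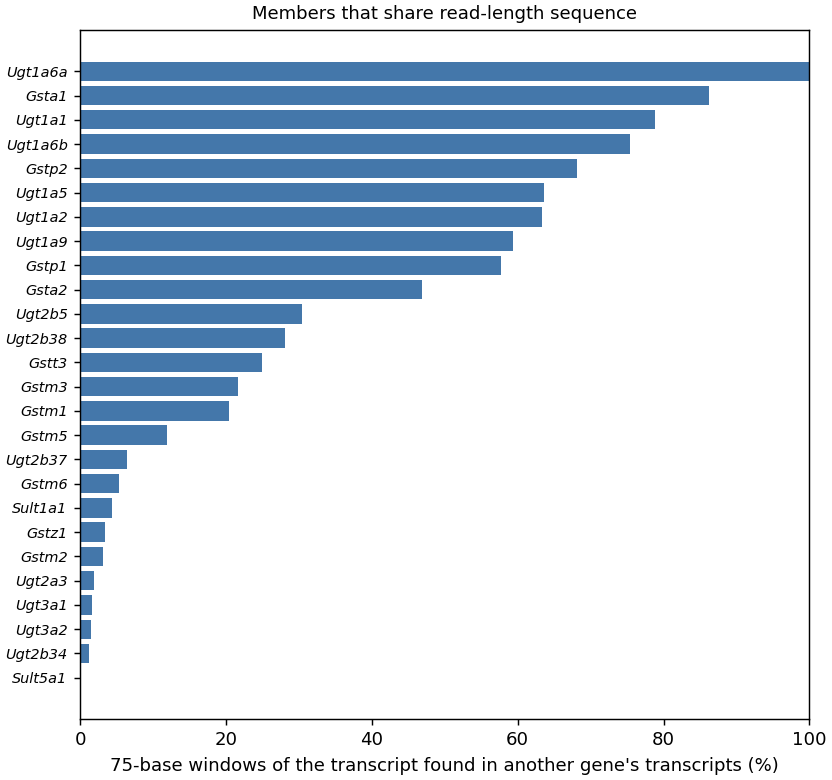
Share of the 75-base windows of each transcript (x axis, percent) that also occur in a transcript of another gene, for the 26 of 41 conjugation genes with any shared window; the other 15 are not drawn. *Ugt1a6a* (100%) and *Gsta1* (86.3%) stand at the top, and *Sult5a1* (0.0804%) at the bottom. The rest of the *Ugt1a* genes follow the top 2, with *Gstp2* (68.2%) among them.

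Of the 41 conjugation genes, *Gstk1* and *Sult5a1* rose and *Gsta1* fell in *Gpr180*KO livers (limma on log2(FPKM + 0.1), Benjamini-Hochberg adjusted p under 0.05 over all genes tested). The other 38 did not pass the test. Among all genes tested, 0.452% were called higher (49 genes) and 4.28% lower (464 genes). The 2 of 41 called higher thus stood against a background of 0.452%, and the 1 of 41 called lower against 4.28%. At an unadjusted p under 0.05, 4 of the 41 were higher and 7 lower, where the background was 2.54% higher and 19.6% lower. The lower genes at this level were *Gsta1*, *Gstm1*, *Gstm3*, *Gstm5*, *Ugt1a5*, *Ugt2b34* and *Ugt2b36*, and the higher ones *Gstk1*, *Sult5a1*, *Sult1a1* and *Ugt2b1*.

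Most genes had a lower FPKM in *Gpr180*KO livers. The median log2 difference over all genes tested was -0.13, and -0.0054 after median-of-ratios scaling. The median over the 41 enzymes was -0.058, and 0.066 with that scaling. With median-of-ratios scaling *Gstk1* and *Sult5a1* were called higher and no conjugation gene lower, at a background of 1.03% higher and 1.58% lower (112 and 171 genes). With the series as a block, *Gstk1* and *Sult5a1* were called higher and 5 genes lower (*Gsta1*, *Gstm1*, *Gstm3*, *Gstm5* and *Ugt1a5*), at a background of 1.13% higher and 9.52% lower.

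**Figure D2:**
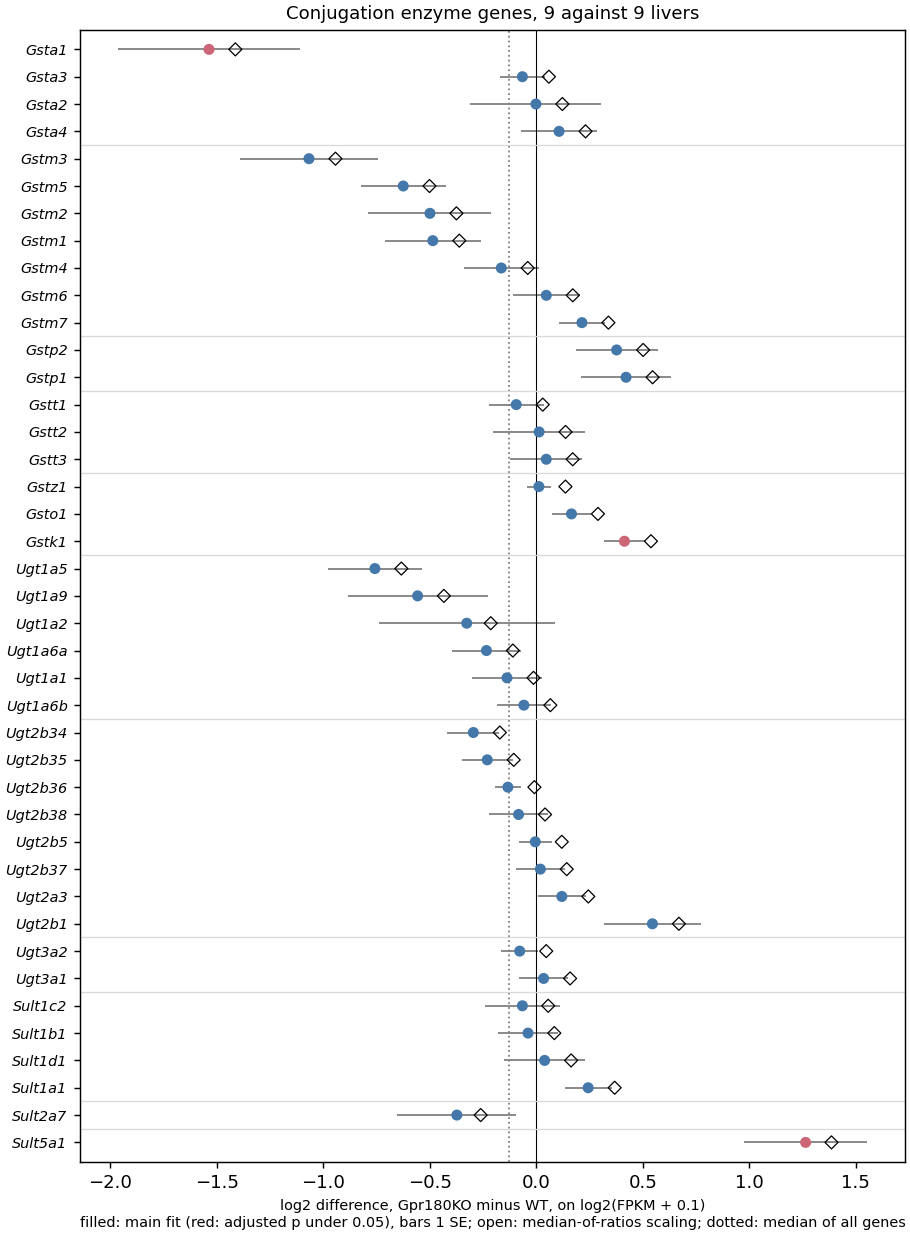
Log2 difference of each conjugation gene, *Gpr180*KO minus wild-type, on log2(FPKM + 0.1) (x axis), with genes grouped by class; filled points and bars are the estimate and 1 standard error (red where adjusted p is under 0.05), open diamonds the value after median-of-ratios scaling, and the dotted line the median of all genes tested (-0.13). *Gsta1* lies lowest (-1.54) and *Sult5a1* highest (1.26), and *Gstk1* (0.41) is the third red point.

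*Gstk1* encodes the kappa class transferase of mitochondria and peroxisomes, which stands apart in structure from the cytosolic classes (chromosome 6, 42245935 to 42250441, mm10). Its level was 151 FPKM in the lowest, 180 in the median and 212 in the highest wild-type liver. In *Gpr180*KO livers it was 214 FPKM in the lowest, 234 in the median and 348 in the highest. Every *Gpr180*KO liver was above every wild-type liver. Such a separation was found for 0.0554% of all genes tested in this direction, or 6 genes, and for 0.175% in the other. Group means were 184 ± 19.8 and 247 ± 43.1 FPKM (SD, n = 9 each), a ratio of 1.34. On the log2 scale the difference was 0.41 (standard error 0.094, 95% interval 0.23 to 0.60, limma adjusted p = 0.0218). The exact permutation test gave p = 4.11e-05 (two-sided), again the smallest possible.

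Within series 1 the wild-type mean of *Gstk1* was 202 FPKM and the knockout mean 230 FPKM. In series 2 the means were 169 and 260 FPKM, so the log2 difference was 0.19 in series 1 and 0.60 in series 2. Both series showed the same direction, but neither alone gave a call (limma adjusted p = 0.0787 and 0.0935). The difference between the series had a limma interaction p of 0.0234 unadjusted and 0.608 adjusted. Without *Gpr180*KO replicate 5, the liver with the highest level, the log2 difference was 0.35 (limma adjusted p = 0.0152). Without wild-type replicate 6, the lowest wild-type liver, it was 0.38 and the call was lost (limma adjusted p = 0.0534), the highest of the values with 1 library left out.

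*Sult5a1* is a sulfotransferase gene on chromosome 8 (123142847 to 123158280, mm10). It was lowly expressed, with 1.56 FPKM in the lowest, 3.94 in the median and 7.04 in the highest wild-type liver. In *Gpr180*KO livers the values were 4.22, 8.02 and 20.5 FPKM. The groups overlapped, but every knockout liver was above the wild-type mean and 6 were above the highest wild-type liver. The means were 3.8 ± 1.59 and 9.57 ± 5.12 FPKM (SD, n = 9 each), a ratio of 2.52. This was the widest difference upward among the 41 genes, with a log2 value of 1.26 (standard error 0.29, 95% interval 0.70 to 1.83, limma adjusted p = 0.0218, exact permutation p = 0.000782, two-sided).

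The *Sult5a1* difference was 1.22 in series 1 and 1.30 in series 2 on the log2 scale. Without *Gpr180*KO replicate 5, which had 20.5 FPKM, it was 1.11 (limma adjusted p = 0.0255). Leaving out wild-type replicate 1 gave 1.17 (limma adjusted p = 0.0506) and leaving out wild-type replicate 6 gave 1.13 (limma adjusted p = 0.0523), so 2 of the 18 single omissions ended the call. The confidence bounds that the tables give beside each FPKM were wide for this gene, spanning 50.6% of the value in the median library, against 8.34% for *Gstk1*.

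*Gsta1* encodes an alpha class transferase that acts on lipid peroxides and electrophiles (chromosome 9, 78230669 to 78242683, mm10). Wild-type livers varied widely, from 3.6 FPKM in the lowest over 29.3 in the median to 54.6 in the highest. *Gpr180*KO livers lay between 3.44 and 15.8 FPKM, with a median of 7.86. No knockout liver reached the wild-type mean, but wild-type replicates 8 and 9, with 11.3 and 3.6 FPKM, lay among them. The means were 31.3 ± 17.96 and 9.16 ± 3.98 FPKM (SD, n = 9 each), a ratio of 0.293. That is a log2 difference of -1.54 (standard error 0.43, 95% interval -2.38 to -0.70, limma adjusted p = 0.0446, exact permutation p = 0.00662, two-sided).

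The *Gsta1* call was the least stable of the 3. With median-of-ratios scaling the log2 difference was -1.41 (limma adjusted p = 0.0698), and the call was lost in 13 of the 18 fits that left out 1 library, with limma adjusted p between 0.0028 (without wild-type replicate 9) and 0.1 (without wild-type replicate 1). The call held without wild-type replicates 8 and 9 and without *Gpr180*KO replicates 1, 3 and 9. In series 1 the difference was -2.02 and in series 2 it was -1.15. Summed with its near-identical copy *Gm3776*, the wild-type level was 58.6 ± 33.1 FPKM and the knockout level 16.8 ± 7.49 FPKM (SD, n = 9 each), with a log2 difference of -1.59 (limma adjusted p = 0.0391, and 0.0579 with median-of-ratios scaling). Summed further with *Gsta2* and *Gm10639*, the difference was -0.82 and did not pass (limma adjusted p = 0.176).

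**Figure D3:**
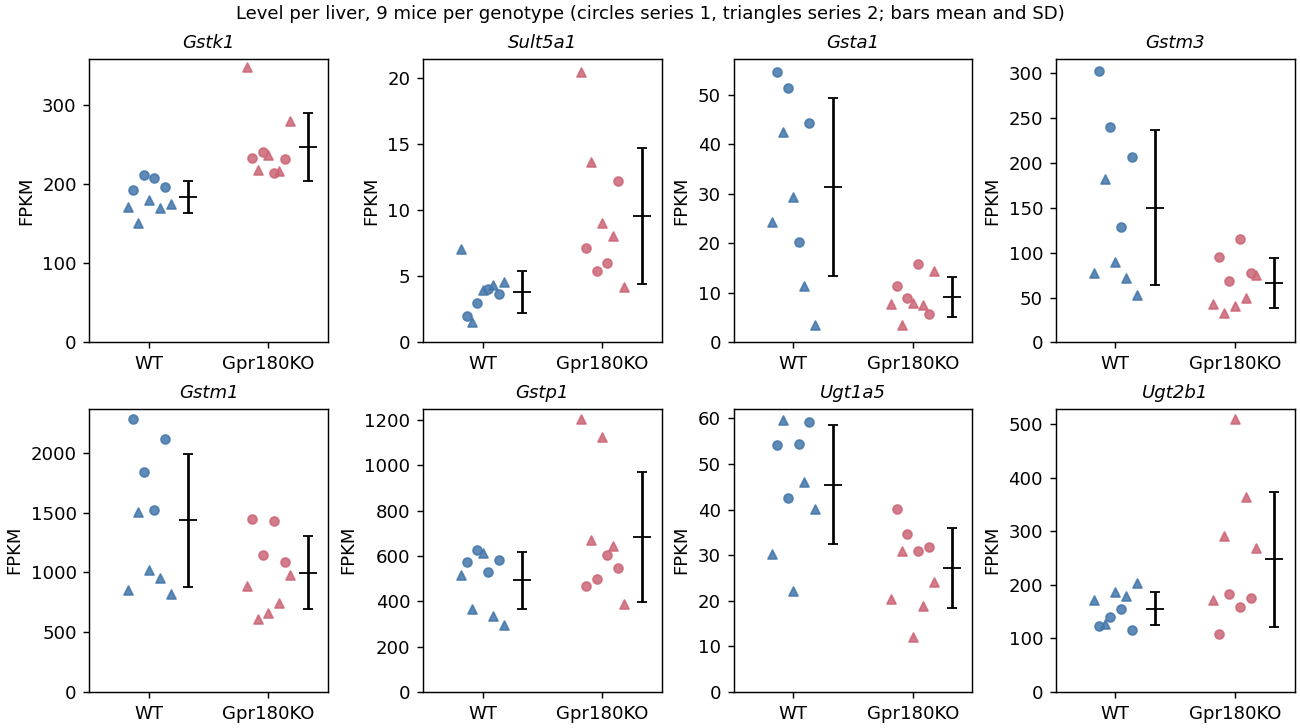
FPKM of 8 conjugation genes in each liver (y axis, from 0), wild-type in blue and *Gpr180*KO in red, circles for series 1 and triangles for series 2; the bar beside each group is the mean with its SD. *Gstk1* separates the groups (151 to 212 against 214 to 348 FPKM), while *Gsta1*, *Gstm3* and *Gstm1* spread most in wild-type livers and *Gstp1* and *Ugt2b1* in *Gpr180*KO livers.

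The other alpha class genes did not pass the test. *Gsta3* had the highest level of all 41 genes, 1113 FPKM in the lowest, 1236 in the median and 1503 in the highest wild-type liver. In *Gpr180*KO livers the values were 939, 1254 and 1612 FPKM, within and around the wild-type range. Its log2 difference was -0.065 with a 95% interval of -0.27 to 0.14, and it was 0.06 with median-of-ratios scaling. *Gsta2* had opposite signs in the series, with a log2 difference of -0.77 in series 1 and 0.62 in series 2 (limma adjusted p of the interaction = 0.608). *Gsta4*, which handles the lipid peroxidation product 4-hydroxynonenal, had 53.7 ± 18.1 and 56.0 ± 11.2 FPKM (SD, n = 9 each).

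The mu class (*Gstm*) is encoded by 7 expressed genes in one cluster on chromosome 3, and none of them passed the test. The summed level of the 7 was 1122 to 3147 FPKM in wild-type livers (median 2038) and 854 to 1934 FPKM in *Gpr180*KO livers (median 1395). The median log2 difference of the class was -0.49, beside -0.13 for all genes, with 5 genes lower and 2 higher by mean level. *Gstm1*, a main cytosolic transferase of mouse liver, had 818 FPKM in the lowest, 1503 in the median and 2285 in the highest wild-type liver. In *Gpr180*KO livers the values were 607, 981 and 1451 FPKM. Of the 9 knockout livers, 3 lay under the lowest wild-type liver and 8 under the wild-type mean. The log2 difference was -0.49 (standard error 0.22, limma adjusted p = 0.209, and 0.0207 with the series as a block).

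*Gstm3* showed the widest difference of the cluster. Wild-type livers had 53.2 FPKM in the lowest, 129 in the median and 302 in the highest, and *Gpr180*KO livers 32.8, 68.6 and 115 FPKM. Every knockout liver lay under the wild-type mean, 4 of them under the lowest wild-type liver. On the log2 scale the difference was -1.07 (standard error 0.32, limma adjusted p = 0.0606, and 0.00692 with the series as a block). The level in wild-type livers also differed between the series, with means of 219 and 95.0 FPKM in series 1 and 2, and the knockout means were 89.2 and 47.9 FPKM. Without wild-type replicate 9 the call was made (limma adjusted p = 0.0198), as it was without *Gpr180*KO replicate 3 (limma adjusted p = 0.0409), and the values with 1 library left out reached 0.127.

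*Gstm5* had 8.45 FPKM in the lowest, 12.2 in the median and 19.2 in the highest wild-type liver, against 4.22, 8.52 and 13.1 FPKM in *Gpr180*KO livers. Its log2 difference was -0.62 (standard error 0.20, limma adjusted p = 0.0721, and 0.0335 with the series as a block), and it shares exon bases with the antisense transcript *4933431E20Rik*. *Gstm7* leaned the other way, with 51.5 ± 6.49 FPKM in wild-type against 60.2 ± 10.9 FPKM in knockout livers (SD, n = 9 each, log2 difference 0.21, limma adjusted p = 0.242). Its difference was -0.10 in series 1 and 0.47 in series 2. *Gstm2*, *Gstm4* and *Gstm6* had log2 differences of -0.50, -0.16 and 0.047.

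The pi class genes *Gstp1* and *Gstp2* lie side by side on chromosome 19 and are known for higher levels in the liver of male than of female mice. *Gstp1* had 294 FPKM in the lowest, 530 in the median and 625 in the highest wild-type liver. In *Gpr180*KO livers it had 390, 602 and 1204 FPKM. *Gpr180*KO replicates 5 and 7, with 1204 and 1126 FPKM, stood far above the rest, and 4 *Gpr180*KO livers were above the highest wild-type liver. Over all livers the log2 difference was 0.42 (standard error 0.21, limma adjusted p = 0.245). It was -0.13 in series 1 and 0.86 in series 2 (limma adjusted p of the interaction = 0.589). For the sum of *Gstp1* and *Gstp2* the difference was 0.40 (limma adjusted p = 0.239). A further copy, *Gstp-ps*, also shares windows with both genes and is not in this sum.

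No theta, zeta or omega class gene passed the test. *Gstt1*, which acts on small halogenated compounds, had 235 FPKM in the lowest, 320 in the median and 376 in the highest wild-type liver, and 212, 299 and 460 FPKM in *Gpr180*KO livers. The 95% interval of its log2 difference was -0.35 to 0.16. *Gstz1*, the maleylacetoacetate isomerase of tyrosine breakdown, was the steadiest *Gst* gene, with 516 ± 26.8 and 521 ± 27.7 FPKM (SD, n = 9 each) and a 95% interval of -0.10 to 0.13. Its exons overlap those of *Pomt2* on the other strand. *Gsto1*, an omega class thiol transferase, had 59.4 ± 9.17 and 66.4 ± 7.9 FPKM (SD, n = 9 each, log2 difference 0.17, limma adjusted p = 0.299). *Gstt2* and *Gstt3* had log2 differences of 0.014 and 0.047.

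None of the 16 *Ugt* genes passed the test in limma, with 3 lower and 1 higher at an unadjusted p under 0.05 (background 19.6% and 2.54%) and 1 called lower with the series as a block (background 9.52%). Their summed level was 1993 to 2135 FPKM in wild-type livers (median 2042) and 1701 to 2494 FPKM in *Gpr180*KO livers (median 2036). The total was more spread in knockout livers around nearly the same median. By the sign of the log2 difference 12 of the 16 were lower and 4 higher in the knockout. After median-of-ratios scaling the split was 8 and 8. For comparison, the log2 difference was negative in 76.9% of all genes tested.

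The *Ugt1a* locus on chromosome 1 yields the enzymes for bilirubin and planar phenols. The knockout mean was the lower one for all 6 expressed *Ugt1a* genes, and 5 of 6 had a negative log2 difference after median-of-ratios scaling. *Ugt1a5* differed most. It had 22.2 FPKM in the lowest, 46.0 in the median and 59.8 in the highest wild-type liver, and 12.1, 30.9 and 40.1 FPKM in *Gpr180*KO livers. No knockout liver reached the wild-type mean, and 3 lay under the lowest wild-type liver. The log2 difference was -0.76 (standard error 0.22, limma adjusted p = 0.0515), with -0.61 in series 1 and -0.88 in series 2. With the series as a block the limma adjusted p was 0.0122, and over the fits that left out 1 library it ran from 0.0224 to 0.113, with a call in 5 of 18.

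*Ugt1a6b*, a phenol glucuronosyltransferase, had the highest level of the locus, 109 FPKM in the lowest, 135 in the median and 166 in the highest wild-type liver. *Gpr180*KO livers had 94.6, 140 and 164 FPKM, and the log2 difference was -0.058 (0.066 with median-of-ratios scaling). *Ugt1a1*, the bilirubin enzyme, had 126 ± 28.2 and 115 ± 29.5 FPKM (SD, n = 9 each). *Ugt1a9*, *Ugt1a2* and *Ugt1a6a* had log2 differences of -0.56, -0.33 and -0.23. Because these transcripts share their final exons, the locus was also summed, with 374 ± 68.3 FPKM in wild-type against 327 ± 67.6 FPKM in knockout livers (SD, n = 9 each, log2 difference -0.20, limma adjusted p = 0.378).

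The *Ugt2* cluster on chromosome 5 encodes enzymes for steroids and bile acids. *Ugt2b5* had the highest level of the 16 *Ugt* genes, with 359 FPKM in the lowest, 408 in the median and 452 in the highest wild-type liver. *Gpr180*KO livers had 313, 396 and 496 FPKM, and the 95% interval of the log2 difference was -0.16 to 0.15. *Ugt2b36* varied little, with 384, 397 and 439 FPKM in wild-type against 328, 365 and 412 FPKM in knockout livers. Of the 9 knockout livers, 7 lay under the lowest wild-type liver. This is a log2 difference of -0.13 (limma adjusted p = 0.2), the same as the median over all genes, and -0.0086 with median-of-ratios scaling.

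*Ugt2b1* had 115 FPKM in the lowest, 154 in the median and 203 in the highest wild-type liver. *Gpr180*KO livers had 109, 183 and 508 FPKM, with 4 of 9 above every wild-type liver and 1 below all of them. All 4 were of series 2, where the means were 173 and 320 FPKM, against 133 and 156 FPKM in series 1. Over both series the log2 difference was 0.55 (standard error 0.23, limma adjusted p = 0.167), and a call was made only with median-of-ratios scaling and the series as a block together (limma adjusted p = 0.037), among the alternatives tried. *Ugt2b34* had 197 ± 16.9 and 164 ± 33.1 FPKM (SD, n = 9 each, log2 difference -0.30, limma adjusted p = 0.163), and no knockout liver reached the wild-type mean. *Gpr180*KO replicate 5 was lowest, with 87.9 FPKM. *Ugt2a3*, *Ugt2b35*, *Ugt2b37* and *Ugt2b38* had log2 differences between -0.23 and 0.12.

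*Ugt3a2*, of a small family on chromosome 15 that uses other UDP sugars, had 164 FPKM in the lowest, 180 in the median and 212 in the highest wild-type liver. *Gpr180*KO livers had 131, 174 and 216 FPKM. The groups overlapped almost fully, with a 95% interval of the log2 difference of -0.25 to 0.095. Its neighbour *Ugt3a1* had a log2 difference of 0.035.

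Among the sulfotransferases other than *Sult5a1*, *Sult1a1* was the most expressed. This phenol sulfotransferase had 179 FPKM in the lowest, 224 in the median and 295 in the highest wild-type liver. In *Gpr180*KO livers it had 214, 278 and 338 FPKM, with 4 of 9 above every wild-type liver. Its log2 difference was 0.24 (standard error 0.11, limma adjusted p = 0.197), with 0.083 in series 1 and 0.37 in series 2. *Sult1d1*, which sulfates catecholamines, had means of 38.4 and 42.4 FPKM (log2 difference 0.040, with -0.20 in series 1 and 0.23 in series 2), and its coefficient of variation was 11.2% in wild-type and 42.6% in *Gpr180*KO livers. *Sult1b1* and *Sult1c2* had log2 differences of -0.039 and -0.065. *Sult2a7*, of the hydroxysteroid sulfotransferases, was just above the minimum, with 0.484, 1.51 and 1.89 FPKM in wild-type against 0.349, 1.21 and 1.55 FPKM in knockout livers (lowest, median and highest, log2 difference -0.37, limma adjusted p = 0.435).

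The remaining 18 symbols had a mean under 1 FPKM and were not tested. Most were sulfotransferases (*Sult1c1*, *Sult1e1*, *Sult2a1* to *Sult2a6*, *Sult2b1*, *Sult3a1*, *Sult4a1* and *Sult6b1*). The highest value in any library was 2.43 FPKM, for *Sult1e1*, the estrogen sulfotransferase, in a *Gpr180*KO liver. *Sult2a6* was listed at 0 in all 18 libraries. *Ugt1a10*, *Ugt1a7c*, *Ugt2a1*, *Ugt2a2*, *Gsto2* and *Gstt4* completed the group. No conjugation gene had a failed estimate or several entries.

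The 41 genes differed widely in how much they varied between livers. The coefficient of variation of the 41 genes had a median of 20.4% in wild-type and 23.1% in *Gpr180*KO livers. It was below 10% in wild-type livers for *Gstz1*, *Ugt2b36*, *Ugt2b5*, *Ugt2b34*, *Ugt3a2* and *Ugt2b35*, and above 50% for *Gsta1*, *Gstm2*, *Gstm3*, *Ugt1a2* and *Ugt1a9*. The log2 difference had the same sign in both series for 24 of the 41 genes. No conjugation gene differed between the series at an adjusted p under 0.05 in limma's interaction term, as for all genes tested (0.0%, 0 of 10835). At an unadjusted p under 0.05 the count was 7 of 41, where the background was 7.69%. These were *Gsta2*, *Gsta4*, *Gstk1*, *Gstm6*, *Gstm7*, *Gstp1* and *Gstp2*, all with a higher difference in series 2, and *Gstp1* and *Gstp2* share reads.

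**Figure D4:**
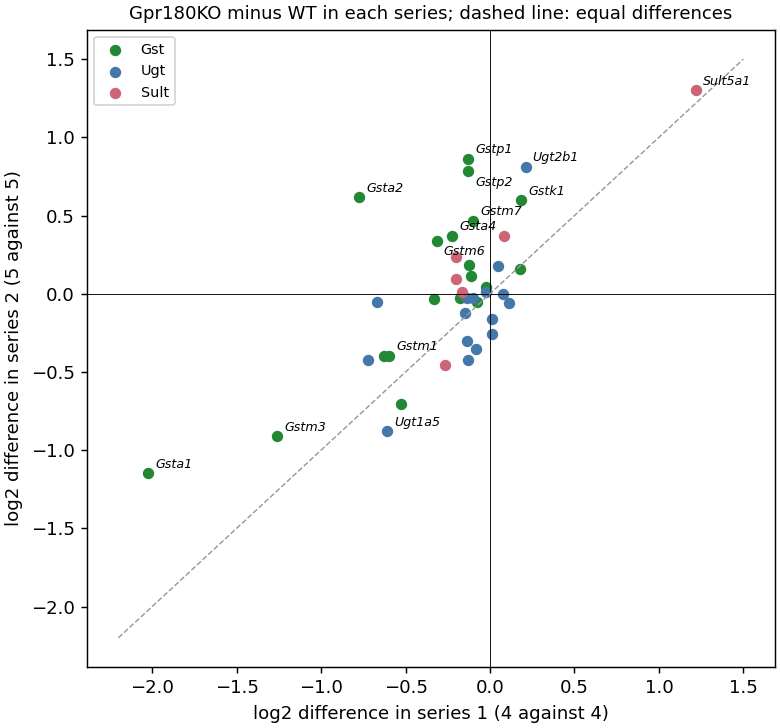
Log2 difference of each conjugation gene, *Gpr180*KO minus wild-type, in series 1 (x axis, 4 against 4 livers) and in series 2 (y axis, 5 against 5 livers), coloured by family, with the line of equal differences dashed. *Sult5a1* (1.22 and 1.30) lies near the line, while *Gstp1* (-0.13 and 0.86) and *Gsta2* (-0.77 and 0.62) lie above it with opposite signs.

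Genes around these enzymes were read in the same fit, and 51 of the 58 listed could be tested. Of these, 3 were called lower and 1 higher, where the background was 4.28% and 0.452%. *Ugdh*, which makes UDP-glucuronic acid, fell from 91.8 ± 20.1 to 62.1 ± 13.4 FPKM (SD, n = 9 each, log2 difference -0.56, limma adjusted p = 0.0366, and 0.0529 with median-of-ratios scaling). *Arsb*, a lysosomal sulfatase, fell from 12.4 ± 1.35 to 9.22 ± 1.42 FPKM (log2 difference -0.43, limma adjusted p = 0.0212), and *Tpmt*, which methylates thiopurines, from 24.9 ± 4.98 to 18.3 ± 2.11 FPKM (log2 difference -0.43, limma adjusted p = 0.0331, and 0.188 with median-of-ratios scaling). *Ephx2*, the soluble epoxide hydrolase, rose from 413 ± 39.5 to 517 ± 65.2 FPKM (log2 difference 0.32, limma adjusted p = 0.0359). With 1 library left out, *Ugdh* was called in 10, *Arsb* in 17, *Tpmt* in 11 and *Ephx2* in 9 of 18 fits. Without wild-type replicate 6 none of the 4 was called, and the limma adjusted p reached 0.0811, 0.0532, 0.0729 and 0.0801 over these fits.

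Within the donor and partner lists most genes did not pass. Of 9 genes for glutathione supply and turnover 0 were called in limma. At an unadjusted p under 0.05, 1 was lower (*Gsr*, log2 difference -0.17, limma adjusted p = 0.19), where the background was 19.6%. *Gclc*, the catalytic subunit of the first enzyme of glutathione synthesis, had 178 ± 30.6 and 148 ± 41.4 FPKM (SD, n = 9 each). The membrane-bound transferase *Mgst1* had 4509 ± 359 and 4201 ± 472 FPKM, above every one of the 41 genes, and *Mgst3* 57.2 ± 18.3 and 32.6 ± 13.3 FPKM (log2 difference -0.88, limma adjusted p = 0.0505). Of 10 regulators 0 were called, with 3 lower at an unadjusted p under 0.05 (*Nfe2l2*, *Ahr* and *Arnt*, background 19.6%). *Nfe2l2*, the factor that drives many *Gst* genes under oxidative stress, had 53.8 ± 9.73 and 40.7 ± 7.9 FPKM (log2 difference -0.41, limma adjusted p = 0.0676), and *Hnf4a*, the most expressed regulator, 119 ± 17.1 and 112 ± 21.6 FPKM. The exporters of conjugates, led by *Abcc2*, included no call among 4 tested, and none at an unadjusted p under 0.05 (background 19.6% lower and 2.54% higher).

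RefSeq promoters of GRCm38.p6 (250 bases before to 50 after the start) were matched for 36 of the 41 genes, with 44 promoters in all. The core of the antioxidant response element, TGACNNNGC searched on both strands, was in a promoter of 3 genes (*Gsta3*, *Gstm5* and *Gstm7*), or 6.82% of the 44 promoters, against 12.4% of all 32851 promoters. The core of the xenobiotic response element, GCGTG, was in 20.5% of the 44 and in 32.4% of all promoters. Of the 3 genes called, *Gsta1* had GCGTG in its window, and *Gstk1* and *Sult5a1* had neither word.

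The tissue label was checked with markers. Hepatocyte markers summed to 18217 to 23306 FPKM in wild-type and 21078 to 34933 FPKM in *Gpr180*KO livers, without *Alb*, which had failed estimates. Of 6 of them tested, *Serpina1c* was called higher, where the share over all genes tested was 0.452%. In *Gpr180*KO livers some markers of other liver cells were called lower and others were not. The share called lower over all genes tested was 4.28%. Of 7 stellate cell and fibroblast markers, 4 were called lower (*Dcn*, *Pdgfrb*, *Col1a1* and *Col3a1*), and the list summed to 133 to 267 FPKM in wild-type and 75.4 to 131 FPKM in *Gpr180*KO livers. Of 7 macrophage markers tested, *Cd68*, *Trem2* and *Gpnmb* were called lower, with sums of 107 to 317.04 and 128 to 204 FPKM. Of 6 cholangiocyte markers only *Sox9* and *Spp1* were tested, and both were called lower. *Krt19*, *Krt7*, *Epcam* and *Cftr* were under the minimum. The list summed to 40.9 to 226 FPKM in wild-type and 17.4 to 51.0 FPKM in *Gpr180*KO livers. Most of this was *Spp1*, with means of 133 and 30.4 FPKM, against 1.44 and 0.859 FPKM for *Sox9*. The calls of *Spp1* and of the 4 stellate cell genes were made in all 18 fits that left out 1 library, those of *Trem2* in 15, *Cd68* in 14, *Gpnmb* in 8, *Serpina1c* in 6 and *Sox9* in 5. With median-of-ratios scaling *Gpnmb*, *Serpina1c* and *Sox9* were not called (limma adjusted p = 0.0523, 0.0507 and 0.121). No endothelial or neutrophil marker was called, of 6 and 3 tested. At an unadjusted p under 0.05, 0 and 3 were lower, where the background was 19.6%. Lymphocyte, kidney and adipocyte markers were under the minimum, with *Kap* and *Plin1* at 0 in all libraries. In RNA of whole liver, fewer cells of a type and less RNA per cell cannot be told apart, and the part of these cells in the values of the 41 genes was not tested.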

How the data were processed

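Liver poly(A) RNA of 18 mice was sequenced with single reads. According to the labels and methods, the authors aligned reads to mm10 (GRCm38) with the TopHat application and deposited FPKM values per gene, which the methods describe as its output. The gene annotation is not given in the sources used here. The tables give no counts, so count tests were not used. Values of 24 genes with a failed estimate (190 values) were left out, and entries sharing a symbol were summed. Relative depth was estimated from the most common FPKM ratio of lowly expressed genes to the deepest library.

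Genes with a mean of at least 1 FPKM (10835) entered a linear model in limma 3.58.1 under R 4.3.3, with moderated variances that follow the mean (eBayes, trend), on log2(FPKM + 0.1), which understates the change of low genes, with Benjamini-Hochberg adjustment over all genes and a threshold of 0.05. *Gpr180* and the conjugation genes called by limma were also tested by exact permutation over 48620 splits. These p-values use the same values, are not adjusted over genes and ignore the series. For the calls they are no separate support. The interaction of genotype and series was a limma term. Steps were tested on simulated data. Python 3.11.15 with pandas 2.3.3 and scipy 1.17.1 and matplotlib 3.10.9 were used otherwise.

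Described in full were the genes called, the most expressed gene of each class and, up to 20, further genes by unadjusted p; genes with an outlying value are named too. Enzymes, lists and rules were chosen with earlier results of these data known. Alternatives were pseudocounts of 1 and 0.01, minimums of 0.1 and 5 FPKM or none, TPM scaling and median-of-ratios scaling, a block for the series, fits to 1 series only, and fits that omit 1 library. Median-of-ratios scaling with the block, and sums of near-identical copies, were added after seeing the data. Replicates are separate mice, numbered in the order of the labels. Read alignments and protein sequences were not used here.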

Additional observations from a re-analysis of the deposited data

Results flagged for a closer look

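In 4 of the 82 groups of 9 livers (41 genes in each genotype), the highest or lowest liver lay far from the next one, by a gap past Dixon's 95% critical value for its share of the group's range. Chance alone flags about 1 in 20 groups, which is 4.1 of 82. *Gstk1* in *Gpr180*KO replicate 5 had 348.3 FPKM, where the next liver had 280.4 FPKM; this library also had the highest FPKM sum. *Gstm6* in *Gpr180*KO replicate 6 had 68.81 FPKM, below the next at 99.59 FPKM. *Gsto1* in wild-type replicate 7 had 80.38 FPKM, above the next at 64.27 FPKM. *Ugt2b36* in wild-type replicate 6 had 439.4 FPKM, above the next at 407.8 FPKM. Each came from a different library.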

How the results depend on the processing

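Beside 2 conjugation genes called higher and 1 lower, the lower count was 2 with a pseudocount of 1 or a minimum of 0.1 FPKM, 0 with a minimum of 5 FPKM, no filter or median-of-ratios scaling, 4 with TPM scaling, 5 with the series as a block, 3 with that block and median-of-ratios scaling, 7 in series 1 alone and 0 in series 2 alone. The higher count was 1 in series 1 and 0 in series 2, and 3 with both block and scaling. Over all genes, 464 lower calls became 776 (minimum 0.1), 200 (minimum 5), 171 (median-of-ratios), 1031 (block) and 0 (series 2), and 49 higher calls became 112 (median-of-ratios), 122 (block), 248 (both), 90 (series 1) and 0 (series 2). Pathway genes called lower, 3, were 1 with median-of-ratios, 8 with the block, 1 in series 1 and 0 in series 2; the 1 higher was 2 with the block with or without median-of-ratios scaling, 2 in series 1 and 0 in series 2. The median over the 41 genes turned from -0.058 to 0.066 with median-of-ratios scaling, with or without the block. With 1 library left out, the ranges were 0 to 4 lower and 0 to 2 higher conjugation genes, 116 to 844 and 16 to 89 of all genes, 0 to 7 and 0 to 1 pathway genes, and -0.088 to -0.026 for the median. The cause of these moves was not tested. The fits to 1 series also hold fewer mice than the main fit, with 4 of each genotype in series 1 and 5 in series 2. The smaller series 1 gave the more calls, with 90 genes higher over all genes against 0 in series 2. Whether the number of mice played a part was not tested.

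Directions turned only for genes that were not called. With median-of-ratios scaling, with or without the block, the log2 differences became 0.12 (*Gsta2*), 0.060 (*Gsta3*), 0.031 (*Gstt1*), 0.085 (*Sult1b1*), 0.056 (*Sult1c2*), 0.066 (*Ugt1a6b*), 0.041 (*Ugt2b38*), 0.12 (*Ugt2b5*) and 0.047 (*Ugt3a2*). TPM scaling gave -0.025 (*Gstz1*), -0.024 (*Gstt2*), -0.018 (*Ugt2b37*) and -0.0030 (*Ugt3a1*), and a pseudocount of 1 gave 0.0015 (*Gsta2*). Series 1 alone gave -0.22 (*Gsta4*), -0.022 (*Gstz1*), -0.32 (*Gstm6*), -0.10 (*Gstm7*), -0.13 (*Gstp1* and *Gstp2*), -0.11 (*Gstt2*), -0.12 (*Gstt3*), -0.20 (*Sult1d1*), 0.012 (*Ugt1a1*) and 0.012 (*Ugt2b38*). Series 2 alone gave 0.62 (*Gsta2*), 0.093 (*Sult1b1*), 0.014 (*Sult1c2*), -0.056 (*Ugt2b37*), 0.012 (*Ugt2b5*) and -0.00096 (*Ugt3a1*). With 1 library left out, ranges that crossed 0 were -0.16 to 0.15 (*Gsta2*), -0.0083 to 0.029 (*Gstz1*), -0.034 to 0.12 (*Gstm6*), -0.11 to 0.083 (*Gstt2*), -0.076 to 0.12 (*Gstt3*), -0.085 to 0.031 (*Sult1b1*), -0.16 to 0.013 (*Sult1c2*), -0.083 to 0.15 (*Sult1d1*), -0.047 to 0.078 (*Ugt2b37*), -0.043 to 0.040 (*Ugt2b5*) and -0.016 to 0.10 (*Ugt3a1*). No paired analysis was possible because the replicate numbers only follow the order of the labels. Without counts, the depth behind a value is known only as a relative depth, and genes of a few FPKM such as *Sult5a1* and *Sult2a7* carry wide bounds.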

Other observations

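Liver genes that usually differ between the sexes were read in the same fit, since several conjugation genes are among those known to do so. Of 14 listed genes usually higher in females, 8 could be tested. Of these, 2 were called lower in these male *Gpr180*KO livers and none higher, where the background was 4.28% lower and 0.452% higher. At an unadjusted p under 0.05, 6 were lower and 1 higher (*Cyp17a1*, log2 difference 0.49, limma adjusted p = 0.216). The background there was 19.6% lower and 2.54% higher. *Cyp3a41a*, a female-predominant cytochrome P450, fell from 15.8 ± 6.43 to 5.95 ± 2.54 FPKM (SD, n = 9 each, log2 difference -1.39, limma adjusted p = 0.00726, called in all 18 fits that left out 1 library). *Fmo2*, a flavin monooxygenase, had a log2 difference of -0.76 (limma adjusted p = 0.025) and lost the call without wild-type replicates 1 or 6 or *Gpr180*KO replicate 7, with limma adjusted p up to 0.0609.

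Of 10 genes usually higher in males, 2 were called higher and none lower, where the background was 0.452% higher and 4.28% lower. At an unadjusted p under 0.05, 5 were higher and 1 lower (*Ces2c*, log2 difference -0.61, limma adjusted p = 0.137). The background there was 2.54% higher and 19.6% lower. *Elovl3*, a fatty acid elongase, rose from 101 ± 38.0 to 189 ± 50.2 FPKM (SD, n = 9 each, log2 difference 0.96, limma adjusted p = 0.0219), and *Cyp7b1*, an oxysterol hydroxylase, from 35.4 ± 10.2 to 65.7 ± 32.8 FPKM (SD, n = 9 each, log2 difference 0.81, limma adjusted p = 0.0464). *Cyp7b1* kept the call in 6 of 18 fits that left out 1 library, with limma adjusted p up to 0.103, and *Elovl3* in 17, with a limma adjusted p of 0.0501 without wild-type replicate 1. All 4 genes were also called with median-of-ratios scaling.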
